A study of Homo sapiens with 30 samples.

Results

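The region described here was a 90-kb stretch of the distal long arm of human chromosome 9, chr9:139860001-139950000 in hg19, which holds PTGDS, CLIC3, ABCA2, FUT7 and NPDC1. It was defined by position, with earlier results of these data known, and every restriction fragment end whose position fell inside it was taken. That gave 296 of 382657 chromosome 9 fragment ends for the promoter viewpoint, 324 of 429740 for the S2 viewpoint and 323 of 428705 for the S4 viewpoint. Across the 3 viewpoints 328 different ends were listed, and 292 of them were listed at every viewpoint.

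The series holds 30 4C-seq libraries of K562, an established human chronic myeloid leukaemia line, and reads from 3 viewpoints at the NOTCH1 locus. The viewpoints were the NOTCH1 promoter (position 139443268), a site named S2 (139385872) and a site named S4 (139523746), so the interval lay telomeric of all of them, 417 to 507 kb from the promoter, 474 to 564 kb from S2 and 336 to 426 kb from S4. Each viewpoint was read in 5 genotypes with 2 libraries each: WT cells, the S2 mutant, the S4 mutant, the S5 mutant and the S4-S5 mutant, which carries both of those mutations. All were grown alike without any treatment named in the labels, which give neither the kind of mutation, nor the position of S5, nor whether a mutant was 1 clone. The comparisons asked whether mutating a CTCF site around NOTCH1 changed how often the viewpoints met this gene-dense stretch.

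In 4C-seq, cross-linked chromatin is cut and ligated so that fragments close in the nucleus join, and the partners of 1 chosen fragment, the viewpoint, are amplified and counted. CTCF is a zinc-finger protein that halts loop-extruding cohesin, and losing one of its sites can alter which stretches of a chromosome meet. The genes here belong to several classes. PTGDS encodes lipocalin-type prostaglandin D synthase and LCNL1 a lipocalin-like protein, PAXX a factor of DNA end joining, and CLIC3 a member of the chloride intracellular channel family. ABCA2 encodes a lipid transporter of the ABC family, FUT7 the fucosyltransferase that completes selectin ligands on leukocytes, and NPDC1 a neural proliferation and differentiation control protein. The assay gave no expression values, so K562 was not checked by marker genes and no gene here is described as active or silent.

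In RefSeq's GRCh38.p14 order, 8 genes ran from PTGDS to NPDC1, namely PTGDS, LCNL1, PAXX, CLIC3, ABCA2, LINC02908, FUT7 and NPDC1, of which 7 were protein coding. No hg19 sequence or annotation was used here, so single fragment ends were not assigned to an exon, an intron or a UTR, and bins are named by coordinate. The first enzyme, DpnII, cuts at GATC, and a fragment end can lie in a promoter only where this word stands. Of the RefSeq promoter windows, the 250 bases before the annotated start, 3 are shown because they hold 0, 2 and 1 such sites, with GATC in capitals. They lie at chr9:136977254-136977503 on the plus strand (PTGDS), chr9:136982743-136982992 on the plus strand (LCNL1) and chr9:136996569-136996818 on the minus strand (CLIC3), all in GRCh38.p14.
PTGDS: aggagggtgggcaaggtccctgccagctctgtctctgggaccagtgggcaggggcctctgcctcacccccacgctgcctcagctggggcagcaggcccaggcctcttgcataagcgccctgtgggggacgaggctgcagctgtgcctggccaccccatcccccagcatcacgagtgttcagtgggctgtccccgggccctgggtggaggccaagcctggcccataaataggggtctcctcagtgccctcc
LCNL1: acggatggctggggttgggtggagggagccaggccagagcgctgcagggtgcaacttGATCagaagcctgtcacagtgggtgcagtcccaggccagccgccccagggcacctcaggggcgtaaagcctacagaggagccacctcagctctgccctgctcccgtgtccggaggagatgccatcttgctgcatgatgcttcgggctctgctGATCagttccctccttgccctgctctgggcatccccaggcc
CLIC3: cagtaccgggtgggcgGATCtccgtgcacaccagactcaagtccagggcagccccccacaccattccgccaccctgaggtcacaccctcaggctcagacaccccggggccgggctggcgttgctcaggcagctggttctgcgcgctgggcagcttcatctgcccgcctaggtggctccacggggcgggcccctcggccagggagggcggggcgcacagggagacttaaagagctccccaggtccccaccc
The LCNL1 sites started at base 58 and base 210 of its window and the CLIC3 site at base 17. Over both strands, 4 of the 9 windows of these 8 genes (ABCA2 has 2 windows) held GATC, against 35.8% of 35116 promoter windows in the table. The canonical core of the CTCF motif was in 0 of the 9 windows and in 0.0513% of all, which says only that its letters are not in these windows.

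The libraries held 1437870 to 8008761 reads on chromosome 9, and 76932 to 3102118 of them lay outside 5 kb of the viewpoint. All shares are percentages of the reads outside these 5 kb. The part inside them was larger in every mutant library than in WT. From the promoter it was 77.3 to 77.8% in WT and 88.1 to 98.6% in the mutants. At S2 it was 59.8 to 60.3% and 61.3 to 76.7%, and at S4 31.4 to 32.1% and 56.8 to 90.9%. The S2 mutant had the largest part at each viewpoint. The interval itself took 882 to 18551 reads. Reads are amplified copies without molecular identifiers, so the 95% Wilson intervals of the shares, for example 1.66 to 1.85% for the shallowest library, cover counting error only. The WT libraries had 74.4 to 79.8% of their reads within 1 Mb of the viewpoint, and the mutant libraries had 87.7 to 93.5%. The part of either difference in any comparison with WT was not tested.

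The 2 libraries of a genotype put most of their interval reads at the same ends, and reads per end agreed less between genotypes. Ends read in both libraries of a group held 97.4 to 99.9% of the group's interval reads. Counted as ends, they were 32.1 to 82.5% of those read in either library from the promoter. The range was 49.3 to 73.5% from S2 and 43.3 to 80.0% from S4. Between libraries of different genotypes these shares were 18.7 to 34.8%, 35.2 to 64.4% and 39.1 to 57.6% at the promoter, S2 and S4. The ranges within and between genotypes thus overlapped at each viewpoint. Over the ends of the interval, log2 of reads plus 1 correlated at r = 0.853 to 0.988 within the 15 groups. Between libraries of different genotypes, r was 0.0553 to 0.274 for the promoter (296 ends, 40 pairs of libraries), 0.104 to 0.548 for S2 (324 ends) and 0.207 to 0.433 for S4 (323 ends). These correlations run across ends that share their libraries and are descriptions. In ends with at least 20 reads in the pair, the chi-square per degree of freedom between the 2 libraries was 0.559 to 52.8 inside the interval and 1.31 to 22.5 over all ends outside the mask, where counting noise alone gives a value near 1. At the promoter the values over all ends were 1.31 to 2.03. The labels call the 2 libraries independent and do not say that they came from separate cultures or ligations. The p-values below therefore reflect only how these library pairs spread, possibly a technical spread, and say nothing of how far another culture or clone would differ.

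In WT cells the interval was reached from every viewpoint. It took 1.26% ± 0.00831 of the promoter's reads, 1.07% ± 0.0373 of those of S4 and 0.900% ± 0.0159 of those of S2 (SD, n = 2). The order does not follow distance, since S4 lay nearest, but the viewpoints had different fragment ends and were not tested against each other. Next to it, the 90 kb on the centromeric side took 1.52% ± 0.0199, 1.53% ± 0.0127 and 1.31% ± 0.00505 from the promoter, S2 and S4, and the 90 kb on the telomeric side 0.716% ± 0.0157, 0.742% ± 0.00425 and 0.968% ± 0.0108. The interval thus lay between its neighbours, below the nearer one and above the farther one, in each of the 6 WT libraries. A window at the same distance on the other side of the viewpoint took as many reads from the promoter (interval over window 0.974 and 0.993), slightly fewer from S2 (1.13 in both) and far more from S4 (0.466 and 0.479).

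**Figure D1:**
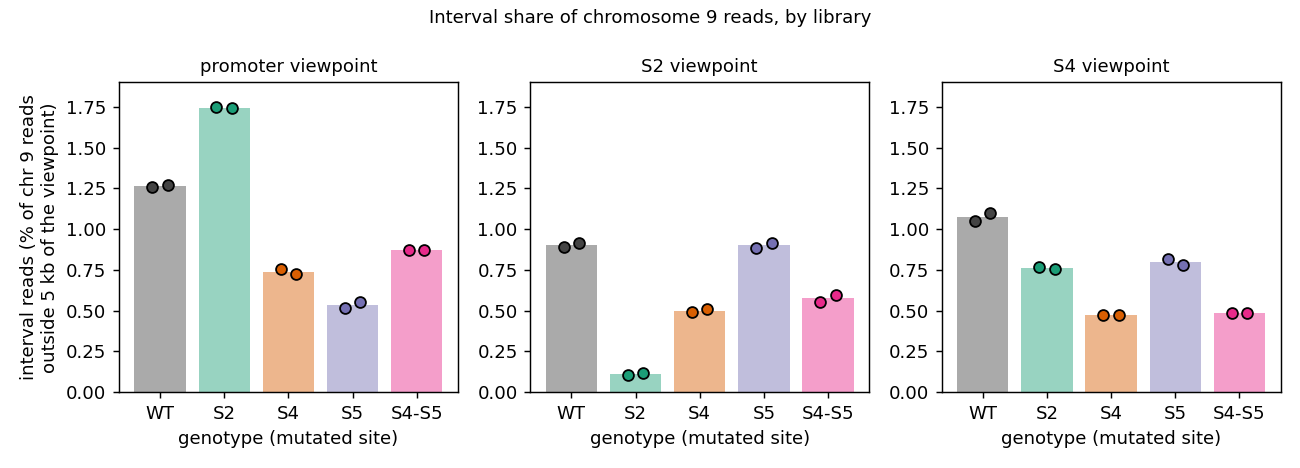
Interval reads as a percentage of chromosome 9 reads outside 5 kb of the viewpoint (y axis, linear from 0), by genotype (x axis) and viewpoint (panels); points are libraries and bars the mean of 2. From S2 the S2 mutant lies at 0.108 and 0.115% against 0.889 and 0.912% in WT, and from the promoter it lies above WT at 1.75 and 1.74%. Most other mutants lie below WT on this scale, and most of those directions turn under TMM or DESeq2 scaling.

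From the promoter, the interval took a larger share in the S2 mutant and a smaller one in the other 3 mutants. The WT libraries had 1.26 and 1.27%, the S2 mutant 1.75 and 1.74%, the S4 mutant 0.753 and 0.727%, the S5 mutant 0.517 and 0.552% and the S4-S5 mutant 0.873 and 0.871%. No 2 genotypes overlapped. Both S2 mutant libraries lay above WT, with a log2 difference of 0.47 (SE 0.06, edgeR adjusted p = 1.84e-14), where 86.5% of the 534 chromosome 9 tiles of 90 kb passed the test. The S4 mutant was lower by a log2 difference of -0.77 (SE 0.05, adjusted p = 2.54e-49, 89.0% of tiles called). For the S5 mutant it was -1.24 (SE 0.06, adjusted p = 4.91e-87, 87.1% called) and for the S4-S5 mutant -0.53 (SE 0.04, adjusted p = 8.87e-32, 90.6% called), with both libraries below both WT libraries each time. With nearly all tiles called, passing the test is near the background and does not set the interval apart.

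The signs of the S4, S5 and S4-S5 mutants depend on the scale. Outside the mask, the S2 mutant was higher than WT on each scale (0.47, TMM 2.21, DESeq2 2.57, reads within 1 Mb 0.20). With the reads inside 5 kb counted, its share was lower than in WT. The interval then had 1347 of 5417204 and 1429 of 5681351 chromosome 9 reads in the S2 mutant, and 4002 of 1437870 and 6663 of 2314930 in WT. In the mutants most tiles lost reads relative to WT, with a median log2 difference over all tiles of -4.78, -3.72, -4.91 and -1.90 for S2, S4, S5 and S4-S5 mutant cells. Relative to that median the interval stood 5.25, 2.95, 3.67 and 1.36 higher. With TMM factors the differences of the S4, S5 and S4-S5 mutants turned to 0.39, 0.25 and 0.49, and with DESeq2 to 0.23, 0.32 and 0.30. Among the 22 tiles within 1 Mb, where medians were -0.22, -0.28, -0.79 and -0.41, the interval was lower than all but 1 in the S4 mutant and all but 3 in the S5 mutant, and 8 were lower in the S4-S5 mutant. In the S2 mutant 19 of the 22 were lower. Without the most covered end of each tile the rise in the S2 mutant was 0.10 (adjusted p = 0.0842), and against the other 3 mutants the S4-S5 mutant differed by -0.02 (adjusted p = 0.900).

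From S2, the interval took by far its smallest share in the S2 mutant. Here the viewpoint bears the name of the mutated site, as it does for the S4 and S4-S5 mutants from S4. What part this had in the differences was not tested. WT had 0.889 and 0.912%, the S2 mutant 0.108 and 0.115%, the S4 mutant 0.491 and 0.510%, the S5 mutant 0.883 and 0.917% and the S4-S5 mutant 0.555 and 0.598%. The S2 mutant libraries held 882 and 1035 reads in the interval. Its log2 difference from WT was -3.02 (SE 0.05, an adjusted p that edgeR returned as 0, 89.3% of 503 tiles called). The S4 mutant differed by -0.85 (SE 0.04, adjusted p = 1.80e-74, 91.8% called) and the S4-S5 mutant by -0.64 (SE 0.04, adjusted p = 3.69e-45, 93.6% called), each with both libraries below WT. Only the S5 mutant overlapped WT, at a difference of 0.00 (SE 0.04, adjusted p = 0.999), in a contrast where 90.7% of tiles were called.

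Medians over all tiles from S2 were -7.16, -7.38, -7.73 and -7.59 in the 4 contrasts in the same order, and the interval stood 4.14, 6.53, 7.73 and 6.95 above them. The lower share in the S2 mutant kept its sign with TMM factors (-1.55) and turned with DESeq2 (1.39). For the S4 mutant both turned it (0.79 and 1.15), and non-blind ends alone gave 0.12, which was not called (adjusted p = 0.0535). The S4-S5 mutant turned to 0.89 and 0.87. Against the other 3 mutants, a different comparison from that with WT, the S4 and S4-S5 mutants stood at 0.37 and 0.64. The S2 mutant (0.111%) was in both references. The S4 mutant's own share, 0.501%, lay below the mean of its reference, 0.529%. The S5 mutant was above WT with TMM (1.98), DESeq2 (3.20) and non-blind ends (1.02), and below it when scaled to reads within 1 Mb (-0.27) or without the top end (-0.41). Of the 22 tiles within 1 Mb, 3, 5, 15 and 4 had a lower difference than the interval in the same order of mutants, where medians were -0.21, -0.13, -0.21 and -0.30.

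From S4, the interval took a smaller share in all 4 mutants when scaled to chromosome 9 reads. WT had 1.05 and 1.10%, the S2 mutant 0.767 and 0.756%, the S4 mutant 0.476 and 0.475%, the S5 mutant 0.815 and 0.782% and the S4-S5 mutant 0.487 and 0.486%. The 2 lines with a mutated S4 site were the lowest and close to each other. Differences from WT were -0.50 (S2 mutant, SE 0.04, adjusted p = 1.94e-38, 87.8% of 533 tiles called), -1.18 (S4 mutant, SE 0.04, adjusted p = 8.34e-188, 91.2% called), -0.43 (S5 mutant, SE 0.04, adjusted p = 6.95e-31, 88.7% called) and -1.14 (S4-S5 mutant, SE 0.04, adjusted p = 2.17e-179, 91.4% called). All 8 mutant libraries lay below both WT libraries. The median tile fell further, by -6.26, -7.58, -7.17 and -7.62, leaving the interval 5.76, 6.40, 6.74 and 6.48 above it. TMM turned all 4 signs (0.64, 0.34, 1.12 and 0.21), though the last value was not called (adjusted p = 0.177). DESeq2 turned them too (3.84, 0.71, 2.41 and 0.59). Against the other 3 mutants the S2 and S5 mutants were higher (0.42 and 0.51). Of the 22 tiles within 1 Mb, 8, 3, 11 and 3 were lower than the interval, with medians of -0.05, -0.16, -0.50 and -0.48.

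The S4-S5 mutant lay nearer to the S4 mutant than to the S5 mutant from S2 and S4, and above both from the promoter. Against the S4 mutant the log2 difference was 0.24 at the promoter (SE 0.05, adjusted p = 6.92e-06, 63.1% of tiles called), 0.20 at S2 (SE 0.04, adjusted p = 8.71e-06, 48.3% called) and 0.03 at S4 (SE 0.04, adjusted p = 0.525, 47.5% called). Against the S5 mutant it was 0.71 at the promoter (SE 0.06, adjusted p = 1.34e-29, 63.7% called), -0.64 at S2 (SE 0.04, adjusted p = 1.32e-45, 47.3% called) and -0.71 at S4 (SE 0.04, adjusted p = 2.05e-78, 48.0% called). In these contrasts the median over all tiles was between -0.03 and 0.26. DESeq2 ended the call of the promoter difference from the S5 mutant (-0.02, adjusted p = 0.834). It turned the differences from the S4 mutant at S2 (-0.28) and S4 (-0.13). Its value from the S4 mutant at the promoter, 0.07, missed the threshold, as did those with TMM at the promoter (0.09) and S2 (0.10). Non-blind ends alone gave -0.50 and -0.28 against the S4 mutant at S2 and S4. Differences from the S5 mutant kept their sign at S2 and S4 with TMM (-1.09 and -0.91) and DESeq2 (-2.33 and -1.82).

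Set against the 90 kb on each side, which takes the chromosome-wide scale out, the interval varied with genotype at every viewpoint. The log2 ratio of interval reads to flank reads from the promoter was -0.83 ± 0.0122 in WT, and 0.37 ± 0.00329, -1.22 ± 0.0184, -1.40 ± 0.105 and -0.79 ± 0.0194 in cells mutated at S2, at S4, at S5 and at both S4 and S5 (SD, n = 2 each). The S2 mutant was the only group here with more reads in the interval than in both flanks together, at a ratio of 1.29. From S2 the ratios were -1.33 ± 0.0146, -4.91 ± 0.0728, -1.48 ± 0.0456, -1.28 ± 0.0678 and -1.62 ± 0.101 in the same order, and from S4 they were -1.08 ± 0.0602, -0.53 ± 0.0164, -1.27 ± 0.00786, -1.36 ± 0.0265 and -1.67 ± 0.00991. From the promoter and S2 the S2 mutant stood farthest from WT, above it in the former and below it in the latter. From S4 the S2 mutant had the highest ratio and the S4-S5 mutant the lowest. In an exact permutation test of the F statistic over all 945 partings of 10 libraries into 5 pairs, the upper-tail p was 0.00106 from the promoter, 0.00212 from S2 and 0.00106 from S4 (adjusted over the 3 viewpoints 0.00159, 0.00212 and 0.00159), where 0.00106 is the smallest value possible. Counted in ends with a read instead of reads, the adjusted p was 0.402, 0.402 and 0.563. The permutation test was not run on other windows of the chromosome, so its values do not set the interval apart from them.

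**Figure D2:**
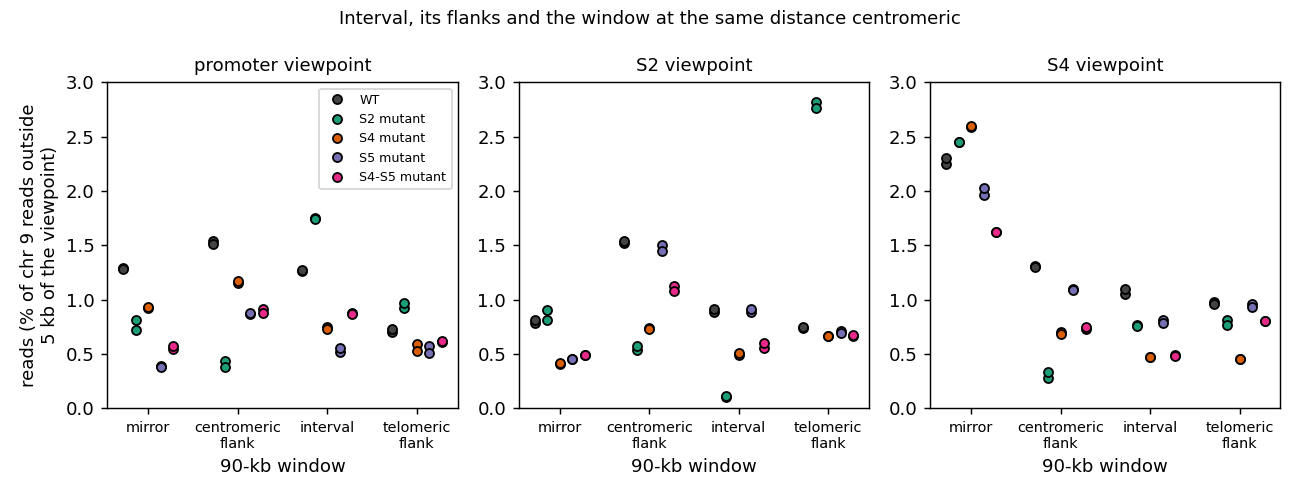
Reads (y axis, percent of chromosome 9 reads outside 5 kb of the viewpoint) in the interval, the 90 kb on either side and the window at the same distance centromeric of the viewpoint ("mirror"); points are libraries, coloured by genotype, with panels by viewpoint. In WT the interval lies between its flanks, and from S2 the S2 mutant has 2.82 and 2.76% in the telomeric flank beside 0.108 and 0.115% in the interval.

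The low ratio of the S2 mutant from S2 came with a high telomeric flank. That flank took 2.82 and 2.76% of its reads against 0.739 and 0.745% in WT, while the centromeric flank took 0.537 and 0.574% against 1.52 and 1.54%. From the promoter and S4 the S2 mutant's centromeric flank was also low, at 0.435 and 0.382% and at 0.283 and 0.335%, the lowest of the 5 genotypes in both cases. In the S5 mutant the flanks from S2 (1.50 and 1.45% centromeric, 0.714 and 0.698% telomeric) were near WT, as the interval was.

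Inside the interval, WT reads were spread over all 9 bins of 10 kb, and the spread differed between mutants and viewpoints. In WT the highest bin from the promoter was 139860001 to 139870000 with 0.239% ± 0.00758, and it was 3.57 times the lowest. From S2 it was the same bin with 0.173% ± 0.00159 and 4.59 times the lowest, and from S4 the bin 139910001 to 139920000 with 0.195% ± 0.0122 and 5.96 times the lowest (SD, n = 2). These top bins held 18.9, 19.3 and 18.1% of the interval's reads. In the S2 mutant 1 bin held 51.8% of them from the promoter (139930001 to 139940000), 57.0% from S2 and 67.6% from S4 (139870001 to 139880000 in both). From the promoter, the S4 and S4-S5 mutants were nearest to WT in evenness but had other top bins. These held 19.8 and 22.3% and were 8.11 and 7.76 times the lowest. The S4 mutant's lowest bin there, 139910001 to 139920000, was the second highest in WT (0.0180% against 0.227%). From S2 the S4-S5 mutant was nearest in evenness, with 26.3% and 5.97 times.

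**Figure D3:**
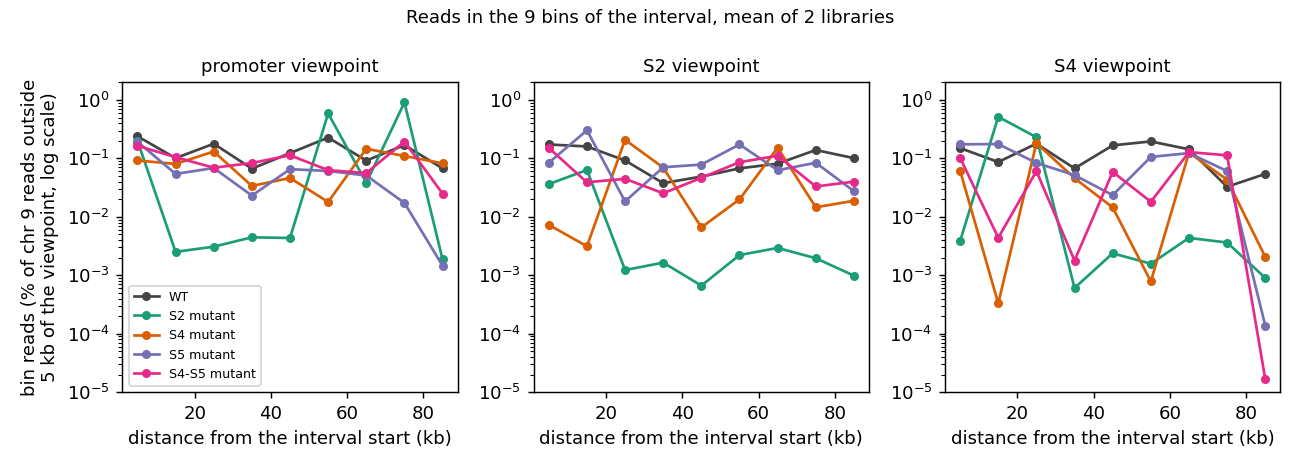
Reads per 10-kb bin (y axis, log scale, percent of chromosome 9 reads outside 5 kb of the viewpoint; mean of 2 libraries) against the distance of the bin centre from the start of the interval (x axis, kb), by genotype and viewpoint. WT stays within a factor of 5.96 at each viewpoint. The S2 mutant is low in most bins, and the other mutants span factors from 5.97 (S4-S5 mutant from S2) upward. The lowest value is 1.69e-05%, in the last bin of the S4-S5 mutant from S4.

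From the promoter, the test called 9 of 9 bins in the S2 mutant (2 higher, 7 lower), where 73.3% of the 1437 chromosome 9 bins were called. The median log2 difference from WT was -3.89 over the 9 bins and -4.26 over all. The S4 mutant also had 9 called, 2 higher and 7 lower, where 77.9% of all bins were (medians -0.62 and -2.05). All 9 were lower in the S5 mutant, with 77.7% of all called (medians -1.38 and -3.96). For the S4-S5 mutant 7 were called, 2 higher and 5 lower, with 87.6% of all called (medians -0.54 and -1.48). The steepest bin of the S2 mutant was 139880001 to 139890000, with 1 and 4 reads against 555 and 954 in WT (log2 -5.81, SE 0.30, adjusted p = 7.59e-81), and the value was -5.18 or -7.06 without its first or second library. In the same profile the bins from 139910001 and 139930001 rose by 1.37 and 2.41. The S4 mutant lost most in 139910001 to 139920000, with 61 and 55 reads against 698 and 1230 (log2 -3.66, SE 0.11, adjusted p = 7.29e-206), as did the S4-S5 mutant with 334 and 456 (log2 -1.86, SE 0.08, adjusted p = 2.32e-125). With TMM factors, 3 bins were called higher and 5 lower in the S2 mutant, 4 higher and 3 lower in each of the S4 and S5 mutants and 5 higher and 3 lower in the S4-S5 mutant. DESeq2 called 3 higher and 5 lower, 2 higher and 4 lower, 1 higher and 5 lower, then 4 higher and 5 lower. For the S5 mutant the steepest was the telomeric end bin, 139940001 to 139950000, with 1 and 5 reads against 227 and 334 (log2 -5.48, SE 0.32, adjusted p = 7.41e-62; -4.76 or -7.00 without its first or second library).

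From S2, all 9 bins were lower in the S2 mutant (74.2% of 1386 bins called, medians -4.93 over the 9 and -6.47 over all). The S4 mutant had 9 called, 3 higher and 6 lower, where 83.5% of all bins were (medians -2.43 and -3.75). The S5 mutant had 9, with 4 higher and 5 lower, where 78.4% were (medians -0.37 and -6.76). The S4-S5 mutant had 7, with 2 higher and 5 lower, where 86.6% were (medians -0.58 and -3.56). The total of the S5 mutant from S2, which overlapped WT, was thus made of bins that differed both ways. With TMM factors, 1 bin was higher and 8 lower in the S2 mutant, 3 higher and 6 lower in the S4 mutant, 7 higher and 1 lower in the S5 mutant and 5 higher and 2 lower in the S4-S5 mutant. DESeq2 called 2 higher and 7 lower, 3 higher and 6 lower, 9 higher and 0 lower, then 1 higher and 5 lower. The S2 mutant's largest difference was in 139940001 to 139950000, with 8 and 9 reads against 670 and 1007 (log2 -6.67, SE 0.24, adjusted p = 1.17e-157). In the S4 mutant it was 139870001 to 139880000, with 70 and 85 reads against 1129 and 1511 (log2 -5.67, SE 0.14, adjusted p = 4.60e-304). The bin 139880001 to 139890000 led in the S5 mutant, with 348 and 333 reads against 667 and 848 (log2 -2.32, SE 0.13, adjusted p = 3.59e-69), and turned to 0.36 with DESeq2. Against the other 3 mutants instead of WT, the difference of the S5 mutant there was -0.29 (adjusted p = 0.124). In the S4-S5 mutant 139930001 to 139940000 led, with 446 and 1350 reads against 1009 and 1271 (log2 -2.05, SE 0.13, adjusted p = 5.23e-56). Against the other 3 mutants instead of WT, the difference of the S4-S5 mutant there was 1.32.

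From S4, the S2 mutant had 9 bins called, 2 higher and 7 lower, where 79.9% of 1411 bins were (medians -5.27 over the 9 and -6.07 over all). The S4 mutant had 8, with 1 higher and 7 lower, where 84.6% were (medians -1.29 and -7.02). The S5 mutant had 9, with 3 higher and 6 lower, where 82.9% were (medians -0.38 and -6.97). The S4-S5 mutant had 9, with 1 higher and 8 lower, where 85.3% were (medians -1.56 and -7.28). With TMM factors, 2 bins were higher and 7 lower in the S2 mutant, 4 higher and 4 lower in the S4 mutant, 5 higher and 2 lower in the S5 mutant and 3 higher and 6 lower in the S4-S5 mutant. DESeq2 called 2 higher and 6 lower, 4 higher and 4 lower, 7 higher and 2 lower, then 2 higher and 6 lower. The highest WT bin, 139910001 to 139920000, kept 10 and 6 reads in the S2 mutant against 2026 and 3090 (log2 -6.93, SE 0.19, adjusted p = 4.22e-257). The S4 mutant kept 9 and 7 reads in 139870001 to 139880000 against 981 and 1264 (log2 -8.00, SE 0.16, an adjusted p that edgeR returned as 0). The telomeric end bin, 139940001 to 139950000, was the most reduced bin in both lines with a mutated S5 site, and was also lower in the S2 mutant (log2 -5.90) and the S4 mutant (-4.71). It held 595 and 816 reads in WT, 3 and 1 in the S5 mutant (log2 -8.57, SE 0.32, adjusted p = 1.89e-151; -9.55 or -7.95 without its first or second library) and 0 and 1 in the S4-S5 mutant. Against the other 3 mutants the S5 mutant differed there by -1.39 (adjusted p = 0.383). With 1 mutant read in both libraries, the ratio of shares in the S4-S5 mutant was 0.000373 (95% counting interval 9.44e-06 to 0.00208), and the fitted log2 difference was -10.93 (SE 0.35, adjusted p = 4.75e-194), or -10.34 and -12.66 without its first and second library. The counting interval is far wider than this SE, which does not measure the precision at 1 read. In WT this bin's reads lay at 4 ends, so the difference concerns 4 ends.

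Few ends carried the reads. In WT 88 to 98 ends of the interval had a read in a library, and in the mutants 32 to 83. Brought to the depth of the shallowest library of each viewpoint, 75.2 to 88.0 ends remained on average in WT and at most 62.7 in the mutants, so WT stayed above every mutant library at each viewpoint. The S4-S5 mutant from the promoter, with 62.4 and 62.7 ends, was nearest to WT (76.9 and 75.2). When bins were tested on ends with a read in place of reads, edgeR called 0 of the 9 bins in each of the 12 contrasts with WT. At an unadjusted p under 0.05 the count was 2 in the S2 mutant from the promoter and 0 in the other 11. In that fit 2.03% and 0.678% of 590 bins were called in the S2 and S5 mutants from the promoter. In the other 10 contrasts it was 0% of 550 to 618 bins. The fit scaled each library to its own chromosome 9 total of ends with a read. A loss of ends shared along the chromosome, as in the counts above, is therefore divided out. A bin of the interval held at most 19 ends with a read in a library, so differences could be missed.

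**Figure D4:**
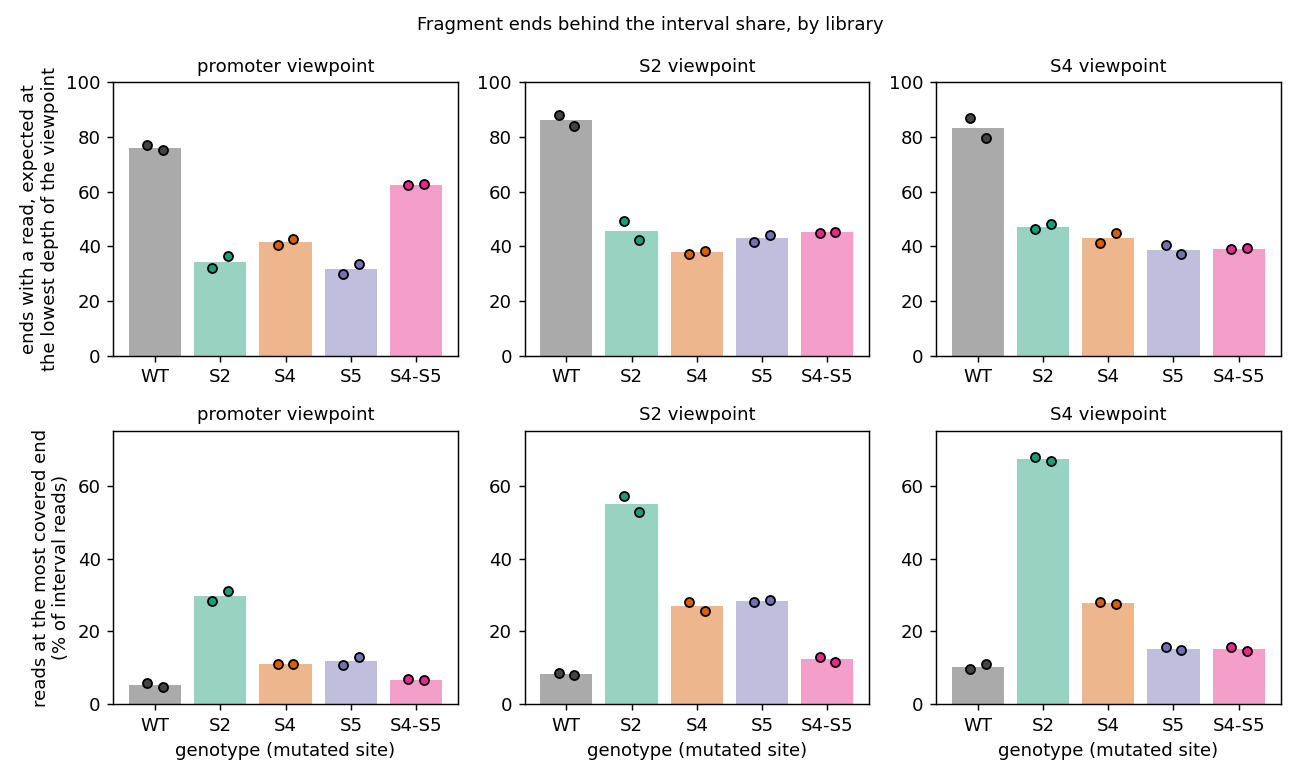
Top row, fragment ends of the interval with a read, on average at the depth of the shallowest library of the viewpoint (y axis, count); bottom row, share of the interval's reads at its most covered end (y axis, percent); points are libraries, bars means of 2, by genotype (x axis) and viewpoint (panels). WT has the most ends (75.2 to 88.0) and the lowest top shares (4.68 to 11.0%), and the S2 mutant from S4 has 68.0 and 66.7% at 1 end.

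The single most covered end of each of the 15 groups was a different position, 15 positions in all, of which 10 were non-blind ends, those on fragments that the second enzyme also cuts. In WT this end held 4.68 to 11.0% of the interval's reads in a library. It was 139867848 from the promoter (230 and 312 reads), 139864482 from S2 (540 and 646) and 139900291 from S4 (1092 and 1839). The first of these had 0 to 8 reads in every mutant library from the promoter, which had 76932 to 743011 reads outside the mask, against 318591 and 525512 in WT.

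At each viewpoint the top end held its largest share in the S2 mutant. From S4, the end at 139873959, on a fragment from 139873955 to 139874450, had 2722 and 2429 reads, 68.0 and 66.7% of the interval, while WT had 5 and 4 there. From S2, the end at 139876791 had 504 and 545 reads (57.1 and 52.7%) and WT 4 and 0. From the promoter, 139912795 had 381 and 443 (28.3 and 31.0%) and WT 0 and 0, and the 5 most covered ends together held 93.7 and 95.9%. The rise of the interval in this mutant from the promoter thus lay in a handful of ends.

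The other mutants had leading ends of their own. From S2, 139888470 had 3206 and 3406 reads in the S4 mutant and 3 to 13 in all other libraries of that viewpoint. The end 139874764 had 4714 and 4713 reads in the S5 mutant and 7 to 16 elsewhere, and made up 28.2 and 28.5% of that mutant's interval reads. In the S4-S5 mutant, 139868186 led with 1432 and 2164 reads, and it had 167 and 179 in the S4 mutant. From S4, 139885768 led in the S4 mutant (3174 and 3244), 139873841 led in the S5 mutant (1803 and 1801, against 162 and 199 in WT), and 139933726 led in the double mutant (1515 and 2095, against 2 to 7 elsewhere). From the promoter, 139943409 led in the S4 mutant (269 and 255, against 64 and 127 in the double mutant), 139861980 led in the S5 mutant (114 and 147), and 139908107 led in the double mutant (311 and 431).

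Over the 292 ends listed at every viewpoint, 82 had reads in both libraries of no group, 56 in 1 group and 50 in 2. None had them in all 15 groups. For these counts and those below, 1 read in each library was enough, and depth was not matched. The most recurrent end, 139910944, was read in both libraries of 13 groups, 3 from the promoter and all 5 from each of S2 and S4, and held a median of 0.546% of a group's interval reads and at most 14.5% (S5 mutant from S2). The ends 139925162 and 139933726 reached 11 groups. At the promoter 4 of 296 ends were read in both libraries of all 5 genotypes, at S2 12 of 324 and at S4 16 of 323. All 3 of these recurrent ends were non-blind at each viewpoint. Non-blind ends made up 61.8% of the interval's ends for the promoter, 29.0% for S2 and 29.1% for S4, and took 78.7, 40.1 and 65.8% of WT reads. From S2 the 4 mutants all lay above WT, the S2 mutant with 96.0% ± 0.302, the S4 mutant with 81.5% ± 1.80, the S5 mutant with 87.2% ± 0.000841 and the double mutant with 53.2% ± 0.585 (SD, n = 2 each).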

How the data were processed

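Each of the 30 deposited tables lists the fragment ends of chromosome 9 for 1 library. Per the file headers, each gives a whole read count per end, which the authors deposited without normalization, and only these counts were used. The other deposited columns, a scaled and a smoothed signal, were not used. Per the submitters' processing notes, deepTools was used and the build was hg19, with no version. The aligner and counter were not given in the sources used here. Per the labels, the second enzyme was NlaIII or CviQI, without saying for which viewpoint.

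Reads within 5 kb of the viewpoint were masked. Chromosome 9 was laid out in 90-kb tiles, the interval being 1 of them, and in 10-kb bins. Per viewpoint, all 10 libraries entered 1 fit of edgeR's quasi-likelihood F test (edgeR 4.0.16, R 4.3.3), with genotype as the only term, masked chromosome 9 totals as library sizes and a minimum mean of 10 reads. Tests were two-sided, Benjamini-Hochberg adjusted over all tiles or bins of a contrast, at 0.05, and were checked on simulated counts. Since 4C reads of 1 end share their source, standard errors rest on libraries, not ends. Each SE of an edgeR difference is its absolute value divided by the square root of the F statistic. In bins with only a few mutant reads it is smaller than the counting error. Shares carry 95% Wilson intervals. DESeq2 1.42.0 was an alternative. Fits on ends with a read used each library's masked total of such ends as its size. The bins named are the highest WT bin and the most changed called bin of each mutant, and the ends named are the most covered of each group. A few others (recurrent ends, the 2 raised bins of the S2 mutant) were named after their values were seen. The interval, lists and tests were chosen with earlier results of these data known. Replicate numbers did not pair libraries across genotypes.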

Additional observations from a re-analysis of the deposited data

Results flagged for a closer look

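In 2 contrasts the interval's share of reads outside the mask differed in opposite directions at different viewpoints, with every library on the same side. In the S2 mutant against WT, both mutant libraries were above WT from the promoter (log2 0.47) and below it from S2 (-3.02) and S4 (-0.50). With the reads within 5 kb counted, the S2 mutant was below WT from the promoter as well. It had 1347 of 5417204 and 1429 of 5681351 chromosome 9 reads in the interval, and WT 4002 of 1437870 and 6663 of 2314930. In the S4-S5 mutant against the S5 mutant, both libraries were higher from the promoter (0.71) and lower from S2 (-0.64) and S4 (-0.71). Over all chromosome 9 reads this second contrast kept its direction from the promoter and S2, and the libraries overlapped from S4. The difference between viewpoints was not tested, since each viewpoint has its own fragment ends and its own fit. Without the most covered end the first contrast was 0.10 from the promoter. From the promoter, S2 and S4 the first contrast was 2.21, -1.55 and 0.64 with TMM factors, and 2.57, 1.39 and 3.84 with DESeq2, so that the directions no longer differed with DESeq2. The second was 0.23, -1.09 and -0.91 with TMM factors. With DESeq2 it was -0.02 (adjusted p = 0.834), -2.33 and -1.82, with no called direction at the promoter.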

How the results depend on the processing

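The contrasts with WT depend on the scale. Across them the median log2 difference over all tiles was -7.73 to -1.90 in the main fit. It was -6.33 to -0.88 with TMM factors and -6.28 to -1.07 with DESeq2. None of these scales thus centred the tiles, and the signs under TMM and DESeq2 are not settled directions either. TMM factors reversed the interval's log2 difference from the promoter in cells mutated at S4, at S5 and at both (0.39, 0.25 and 0.49). They also reversed it in the S4 and S4-S5 mutants from S2 (0.79 and 0.89) and in all 4 mutants from S4. The values from S4 were 0.64, 0.34, 1.12 and 0.21, the last not called (adjusted p = 0.177). DESeq2 reversed the same ones from the promoter (0.23, 0.32 and 0.30), from S2 (1.15 and 0.87) and from S4 (3.84, 0.71, 2.41 and 0.59). It also reversed the S2 mutant from S2 (1.39) and the bin from 139880001 in the S5 mutant from S2 (0.36). The S4-S5 against the S4 mutant was reversed at S2 (-0.28) and S4 (-0.13). Against the S5 mutant at the promoter the S4-S5 mutant lost its call (-0.02). At the promoter the S4-S5 against the S4 mutant was no longer called with TMM (0.09) or DESeq2 (0.07), nor at S2 with TMM (0.10). The S5 mutant from S2, at 0.00, passed the threshold with TMM (1.98), DESeq2 (3.20), reads within 1 Mb (-0.27), non-blind ends (1.02), the top end left out (-0.41) and the other 3 mutants as reference (1.50). Against that reference, a different comparison from that with WT, the sign was opposite in the S4 and S4-S5 mutants from S2 (0.37 and 0.64). So it was in the S2 and S5 mutants from S4 (0.42 and 0.51) and in the bin from 139930001 in the S4-S5 mutant from S2 (1.32). Not called against it were the S5 mutant in the bins from 139940001 at S4 (-1.39) and 139880001 at S2 (-0.29) and the S4-S5 mutant from the promoter (-0.02). Non-blind ends turned the S4 mutant from S2 to 0.12, which was not called (adjusted p = 0.0535). They reversed the S4-S5 against the S4 mutant at S2 (-0.50) and S4 (-0.28). Leaving out the top end ended the call of the S2 mutant from the promoter (0.10) and made one for the S4-S5 against the S4 mutant at S4 (0.27).

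In ends with a read the differences from WT of the 4 mutants (S2, S4, S5, then both) were 0.00, 0.16, 0.11 and 0.25 from the promoter, 0.02, -0.17, 0.13 and 0.13 from S2 and -0.16, -0.07, -0.14 and 0.00 from S4. The S4-S5 mutant differed from the S4 mutant by 0.09 and 0.30 at the promoter and S2 and from the S5 mutant by 0.15, 0.00 and 0.14 at the promoter, S2 and S4. None of these passed in edgeR's test (adjusted p from 0.494 to 0.995), nor did a bin of the interval (0 of 9 in all 12 contrasts; at an unadjusted p under 0.05, 2 in the S2 mutant from the promoter and 0 in the others). The bins from 139910001 (S4 mutant, promoter) and 139940001 (S2 mutant, S2) had 0.17 each. The adjusted p of the interval-to-flank ratio became 0.402, 0.402 and 0.563. In ends with a read, the interval and bin fits were scaled to each library's own total of such ends. The cause of the changes with this measure was not tested. For the interval's share and its ratio to the flanks, filtering, a 20-kb mask and 45-kb flanks changed no call, and neither did leaving out 1 library (for example -3.06 to -2.97 for the S2 mutant from S2). Of the 9 bins, 7 to 9 were called per contrast with the 20-kb mask, 7 to 9 without the filter and 6 to 9 leaving out 1 library. Thinning to 1 depth and the filter of 1 end were added after seeing the data.

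Replicate numbers were shared by all groups, and the deviations of same-numbered libraries correlated at -0.0969 to 0.0883, with 0 of 10 pairs over 0.1 at each viewpoint. With the replicate block in the fit, the S2 mutant differed from WT by 0.47 from the promoter, -3.02 from S2 and -0.50 from S4, and 7 to 9 of 9 bins were called per contrast with WT.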
